A study of Canis lupus familiaris with 45 samples.

Results

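Left ventricular gene expression late in rapid pacing was compared with expression early in rapid pacing, among paced dogs alone. Members were chosen by the stage in the labels: the late group joins the Week-2 and End-stage dogs (6 dogs), and the early group joins the Day-3 and Week-1 dogs (6 dogs). These 12 dogs are 12 of the 15 dogs of the series and account for 36 of its 45 single-colour oligonucleotide arrays. The 3 unpaced Day-0 dogs entered no test and are given as a level for orientation.

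All dogs were male and age-matched, and no genotype or breed is named in the labels. In the late and early groups alike a ventricular pacemaker was implanted through a thoracotomy, and the right ventricle was paced at 240 ppm. Late dogs were paced for 2 weeks (Week-2) or for 3 to 4 weeks (End-stage, judged by haemodynamics). Early dogs were paced for 3 days (Day-3) or 1 week (Week-1). The Day-0 dogs were not paced. Tissue was taken across the full thickness of the left ventricular wall and frozen, and RNA was isolated 3 times from each dog, with an array for each isolation. Isolations of a dog are technical repeats, so their log2 signals were averaged and the dog was the replicate.

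Rapid ventricular pacing in the dog is a large-animal model of dilated heart failure: sustained tachycardia weakens contraction, dilates the chamber and activates neurohormonal systems within days to weeks. In failing myocardium generally, stretch and neurohormones induce immediate early genes, matricellular proteins and fetal isoforms, while genes of calcium cycling, repolarising potassium currents and fatty acid oxidation often decline. The comparison of late with early pacing asks which of these differences go with longer pacing. Fading of a response to the start of pacing or to surgery cannot be told apart from progression here.

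The array profiles were checked before any test. Median signal per paced array lay between 33.3 and 48.5, and its mean per dog was 39.3 in late dogs and 38.9 in early dogs (exact permutation p = 0.788, two-sided, 6 against 6 dogs). The 3′ minus 5′ signal of GAPDH averaged −0.08 log2 in late dogs and −0.08 in early dogs (exact permutation p = 1), and that of actin averaged −2.28 in late dogs and −2.42 in early dogs (exact permutation p = 0.485). Of the 36 arrays, 29 correlated most closely with another array of the same dog. End-stage dog 1 and Week-1 dog 1, which lie on opposite sides of the comparison, resembled each other. Centred on the mean of the paced dogs, their profiles correlated at r = 0.40 across probe sets. These 2 dogs share a number. The next closest pair, Day-3 dog 3 and Week-1 dog 3 (r = 0.22), share one too. So do the pair after it, Day-3 dog 1 and Week-2 dog 1 (r = 0.13). Isolations 1 and 3 of Week-1 dog 1 lay closest to arrays of End-stage dog 1 (r = 0.27 and 0.45). The count of genes passing the test, the leading genes, the heart failure genes and the list medians are therefore also given without these 2 dogs.

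The tissue carried cardiomyocyte transcripts at high signal. Of 14 cardiomyocyte markers, 10 were measured, among them MYH7 (ventricular myosin heavy chain), TNNI3 (cardiac troponin I) and TTN (titin). Their summed signal lay between 69752 and 101779 in late dogs and between 69700 and 101325 in early dogs, so the groups overlapped almost fully. Dog 1 had the lowest MYH7 of its stage at all 5 stages, Day-0 included, at 13.13 to 13.24 log2 against 13.45 to 13.80 in the other dogs, and the same held for TNNI3, MYL3, TNNT2 and the medians of the sarcomere list and the cardiomyocyte markers. The labels do not say what dogs of one number share. Each number is found once at every stage, so it is balanced between late and early dogs, but the tests below count it as spread between dogs. The atrial light chain genes MYL4 and MYL7 were also measured in these ventricular samples, with a summed signal of 1510 to 3806 in late dogs and 1671 to 3700 in early dogs. The few markers on the array for mast cells (1), mesothelium (1) and Schwann cells and nerve (2) did not pass the filter on low signals. No erythroid marker had a probe set under its name, so erythroid transcripts were not measured.

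No gene passed the test for a difference between late and early pacing. Of 14302 probe sets tested, 0 (0%) had a limma adjusted p under 0.05, and the smallest adjusted p was 0.855. At an unadjusted limma p under 0.05 there were 502 probe sets (3.51%), 284 higher in late dogs (1.99%) and 218 lower (1.52%). A uniform spread of p values over the probe sets tested would give 715.1. With the dog number as a block in the fit, 0 probe sets passed and 731 had an unadjusted p under 0.05, so the unadjusted count lay on the other side of 715.1. An exact permutation test over all 924 splits of the 12 dogs into 6 and 6 placed 546 probe sets under 0.05 before adjustment and 0 after it. The smallest p that this design can give is 0.00216, and 24 probe sets reached it. For scale, the 12 paced dogs were set against the 3 Day-0 dogs in a fit with a mean per group over 15 dogs. This gave 43 probe sets (0.301%) past the same limma threshold and 1687 (11.8%) at an unadjusted p under 0.05. In the same kind of fit, late minus early gave 0 and 553.

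The differences were also small in size. The middle 95% of late minus early differences lay between −0.42 and 0.39 on the log2 scale, and 31 probe sets (0.217%) reached a difference of 1 in either direction. For 13524 probe sets (94.6%) the 95% interval of the difference lay inside −1 to 1, which leaves out a 2-fold difference either way at those probe sets. The median standard error of a difference was 0.16. The median SD was 0.17 between dogs of a stage and 0.31 between isolations of a dog.

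**Figure D1:**
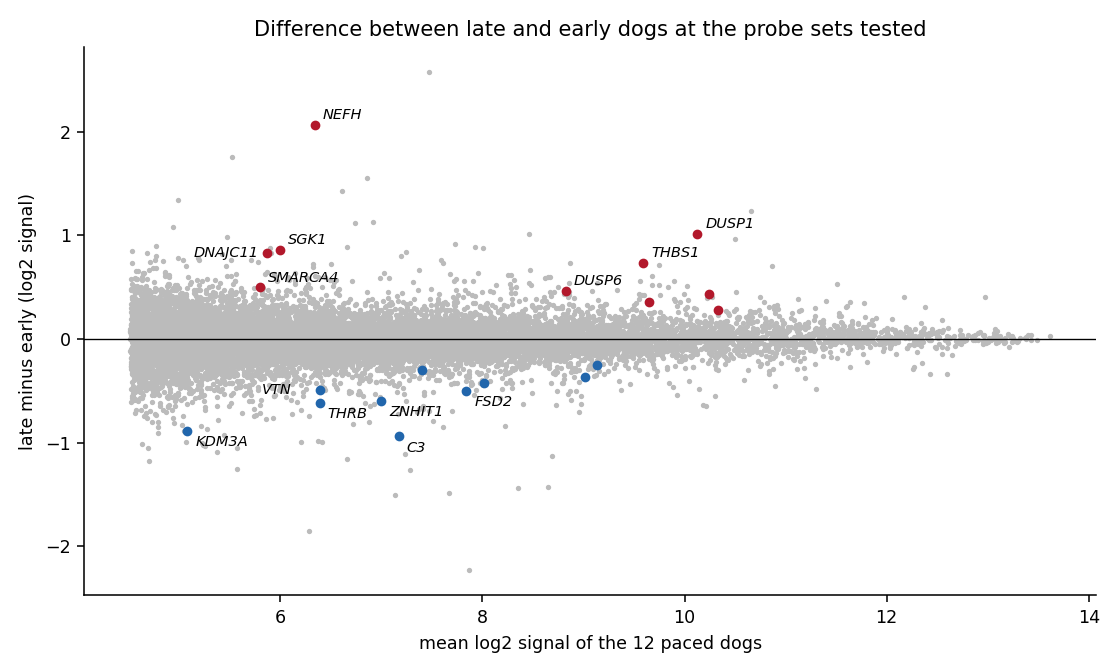
Late minus early difference (log2 signal, y axis) against the mean log2 signal of the 12 paced dogs (x axis) for the 14302 probe sets tested. Red and blue points are the 10 named genes with the smallest p in each direction, higher and lower in late dogs; NEFH lies at 2.06 and KDM3A at −0.89, and none of the points passed the adjusted threshold.

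Without End-stage dog 1 and Week-1 dog 1 (5 against 5 dogs), 1 probe set passed the limma threshold. It was NEFH, the heavy neurofilament chain, an intermediate filament subunit best known from axons, with a log2 difference of 2.44 (SE 0.31, limma adjusted p = 0.0447). Leaving out End-stage dog 1 alone gave the same single call (2.41, SE 0.29, limma adjusted p = 0.0126). With all 12 dogs NEFH had the smallest p of any probe set. Its log2 signal was 5.63 at the lowest, 7.53 at the median and 8.39 at the highest in late dogs, against 4.84, 5.20 and 6.06 in early dogs. Of the 6 late dogs, 5 lay above every early dog, and the exception was End-stage dog 1, at 5.63. Leaving that dog out therefore raises the difference and narrows the spread. The 2 dogs left out together were picked from these same array profiles. The calls without End-stage dog 1 are thus no independent support for NEFH. The log2 difference over 12 dogs was 2.06 (SE 0.39), which is 4.18-fold (limma adjusted p = 0.855; exact permutation p = 0.00433, two-sided). Stage means were 5.45 on Day-3, 5.18 at Week-1, 7.52 at Week-2 and 7.23 at End-stage, with Day-0 at 5.08, so the early stages were near the unpaced level. The light chain NEFL and the medium chain NEFM lay below the signal filter on every probe set named for them and were not tested. The brightest NEFL probe set ranged from 2.08 to 6.30 in late dogs and from 2.65 to 4.85 in early dogs.

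**Figure D2:**
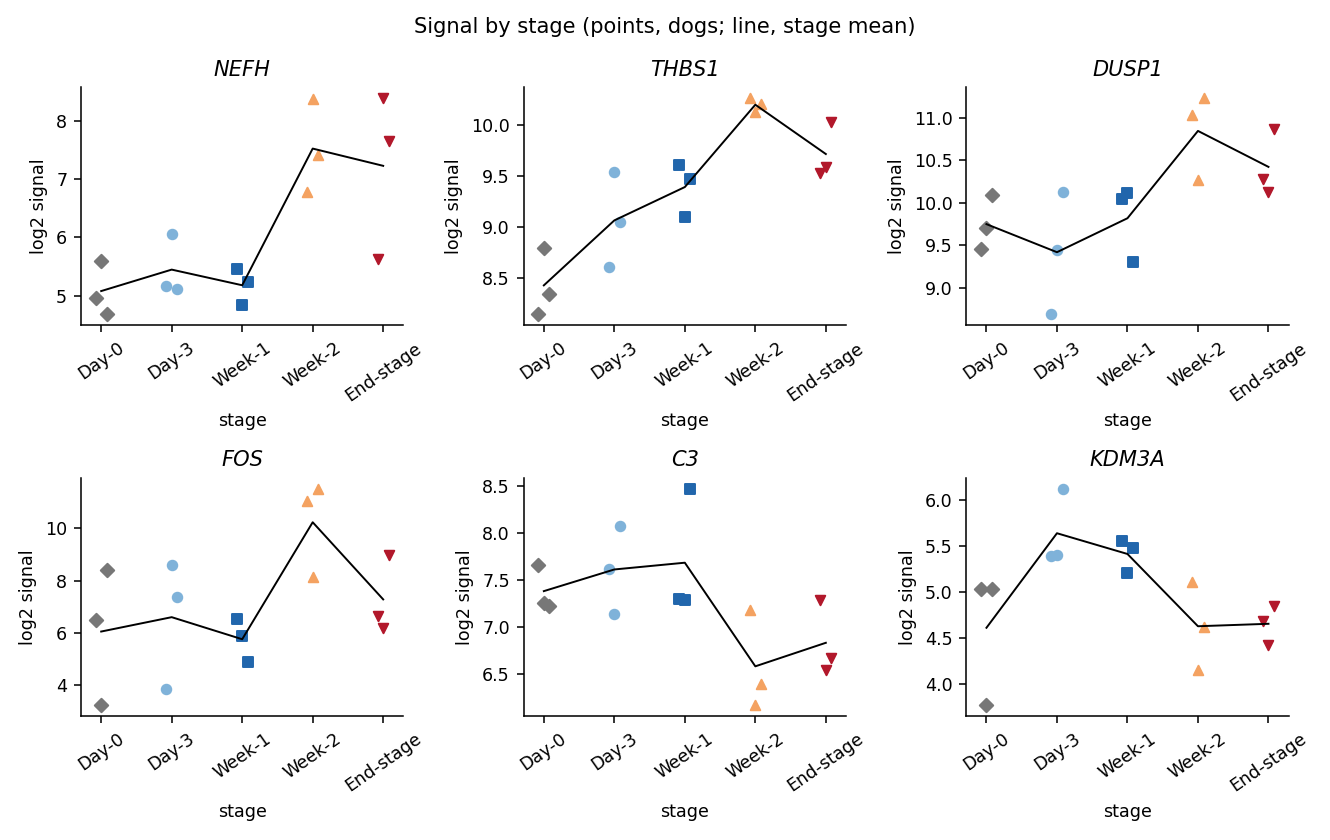
Log2 signal (y axis) of 6 genes in each dog (points) at each stage in order of time (x axis), with a line through the stage means. NEFH, THBS1, DUSP1 and FOS have their highest stage mean at Week-2; C3 and KDM3A have lower means at Week-2 and End-stage than on Day-3 and at Week-1.

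Besides NEFH, the higher values with the smallest p included a pair of dual-specificity phosphatases that switch off mitogen-activated protein kinases. DUSP6, which acts on ERK, had log2 signals of 8.96, 8.99 and 9.36 (lowest, median, highest) in late dogs and 8.28, 8.66 and 8.74 in early dogs. All 6 late dogs lay above all 6 early dogs. This pattern was found at 24 probe sets in either direction (0.168%), 14 of them above (0.0979%) and 10 below (0.0699%). Random splits of the dogs into 6 and 6 give such separation in either direction with probability 0.00216. The share found was therefore no larger than chance gives, and a lack of overlap alone does not set a gene apart. The DUSP6 difference was 0.46 (SE 0.10, limma adjusted p = 0.887, exact permutation p = 0.00216). The Day-0 mean of 8.89 was nearer to the late dogs, but it was raised by Day-0 dog 2 (9.29). Day-0 dogs 1 and 3 (8.74 and 8.63) lay within the early range. DUSP1, which is induced by stress and glucocorticoids and acts on p38 and JNK, had 10.12, 10.57 and 11.23 in late dogs and 8.69, 9.74 and 10.13 in early dogs. Its difference was 1.01 (SE 0.26, 2.02-fold; exact permutation p = 0.00433), with 5 of 6 late dogs above every early dog and the sixth, End-stage dog 2, just under the highest.

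THBS1 encodes thrombospondin-1, a matricellular glycoprotein that can activate latent TGF-beta. Its log2 signal was 9.53, 10.08 and 10.27 in late dogs and 8.60, 9.28 and 9.61 in early dogs. The groups overlapped at End-stage dogs 1 and 2, and all 3 Week-2 dogs lay above every early dog. The difference was 0.73 (SE 0.18, 1.66-fold; exact permutation p = 0.0108), and stage means ran 9.06, 9.39, 10.20 and 9.72 from Day-3 to End-stage, with Day-0 at 8.42. SGK1, a kinase induced by serum and glucocorticoids, differed by 0.86 (SE 0.23) at one probe set and by 0.08 (SE 0.39) at the other, so its probe sets disagreed. VWF, the von Willebrand factor of endothelial cells, differed by 0.43 (SE 0.12) and 0.45 (SE 0.13) at its probe sets, with 10.27, 10.44 and 10.65 in late dogs and 9.59, 10.01 and 10.42 in early dogs at the first. In whole tissue such as this, more cells of a type and more RNA per cell cannot be told apart, and likewise fewer cells and less RNA per cell.

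The other 4 of the 10 leading higher genes had differences of 0.28 to 0.83. They were SLC9A3R2, a scaffold for membrane transporters (0.35, SE 0.09), SPCS3, a subunit of the signal peptidase (0.28, SE 0.07), DNAJC11, a J protein of mitochondria (0.83, SE 0.22), and SMARCA4, the ATPase of the BAF chromatin remodeller (0.50, SE 0.14). SPCS3 was barely without overlap, at 10.306 to 10.57 in late dogs and 10.09 to 10.304 in early dogs.

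Among genes lower in late dogs, KDM3A, a histone H3 lysine demethylase, had the smallest p. Its log2 signal was 4.15, 4.65 and 5.11 in late dogs and 5.20, 5.44 and 6.12 in early dogs, without overlap. The difference was −0.89 (SE 0.20, limma adjusted p = 0.887; exact permutation p = 0.00216), at a low signal, and the Day-0 mean of 4.61 was close to that of the late dogs. THRB, the beta thyroid hormone receptor, was barely without overlap, at 5.52, 6.15 and 6.43 in late dogs and 6.43, 6.70 and 7.01 in early dogs (difference −0.62, SE 0.17). Its highest late dog (6.430) and lowest early dog (6.432) were almost equal, against a median SD of 0.31 between isolations of a dog. ZNHIT1, a subunit of the SRCAP chromatin complex, had a difference of −0.60 (SE 0.14), with 5 of 6 late dogs below every early dog.

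C3, the central protein of the complement cascade, had a log2 signal of 6.17, 6.60 and 7.29 in late dogs and 7.14, 7.46 and 8.47 in early dogs. The difference at this probe set was −0.94 (SE 0.24; exact permutation p = 0.013), and the 5 tested probe sets of C3 lay between −1.11 and −0.53, all below 0. The highest C3 values were those of Day-3 dog 3 (8.07) and Week-1 dog 3 (8.47), and the other early dogs lay between 7.14 and 7.62, still overlapped by 2 of the late dogs. The same pair of early dogs also had the highest medians of fibroblast markers (0.53 and 0.81 above the mean of the paced dogs) and of macrophage markers (0.50 and 0.49), and the highest ADIPOQ, the adipocyte hormone adiponectin (8.15 and 8.58). These 2 early dogs share a number, and their profiles correlated at r = 0.22. The part of these cell types, or of the dog number, in the C3 difference was not tested.

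The remaining leading lower genes differed by −0.50 to −0.25. VTN, the adhesive plasma protein vitronectin, differed by −0.50 (SE 0.15), and FSD2, a gene of striated muscle, by −0.50 (SE 0.16). LOC479912, a gene without a given name, differed by −0.43 (SE 0.13) and SSNA1, a microtubule-associated protein, by −0.37 (SE 0.10). AIG1 differed by −0.30 (SE 0.09), and CLIP1, which tracks growing microtubule ends, by −0.25 (SE 0.07) without overlap. Over the 20 leading genes, exact permutation p lay between 0.00216 and 0.0173, none passed adjustment, and 5 were without overlap. Without End-stage dog 1 and Week-1 dog 1, all 20 kept their direction, at 0.97 to 1.23 times the difference, and 1 of them, NEFH, passed the threshold. The mean of the late dogs was nearer to Day-0 than that of the early dogs for 4 of the 10 higher and 4 of the 10 lower genes.

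**Figure D3:**
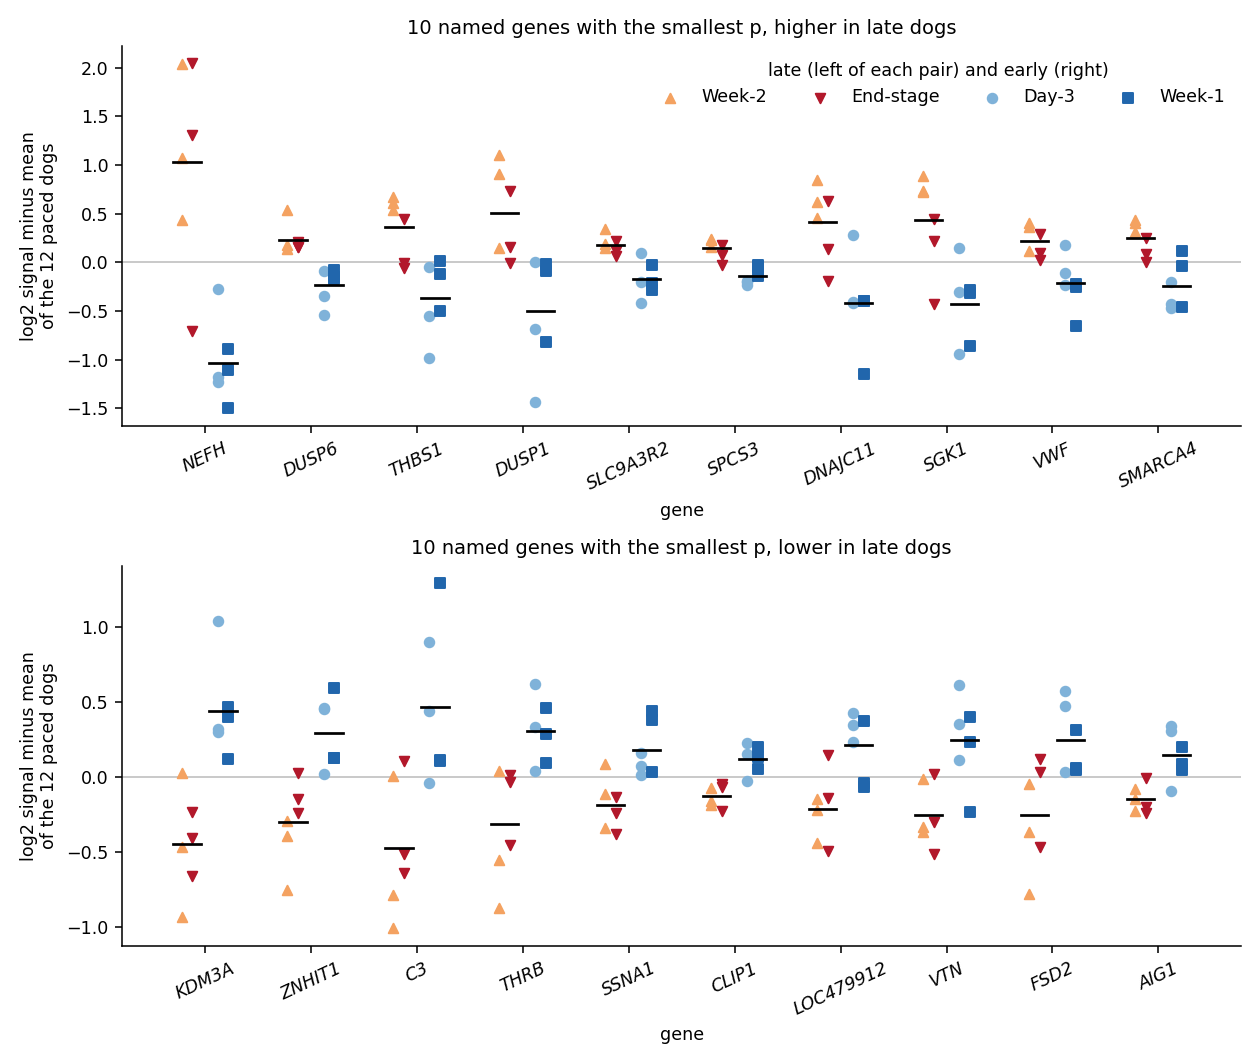
Log2 signal of each dog minus the mean of the 12 paced dogs (y axis) for the 10 leading genes higher (upper panel) and lower (lower panel) in late dogs, late dogs left of early dogs for each gene, with a black bar at each group mean. NEFH spreads widest, with End-stage dog 1 the only late dog among the early dogs. DUSP6, SPCS3, KDM3A, THRB and CLIP1 show no overlap, though the gap is very small for SPCS3 and THRB.

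The other named genes without overlap were singled out after their values were seen, and lack of overlap was no more frequent than chance gives. WLS, the carrier that brings Wnt proteins to the cell surface, lay at 10.66 to 10.90 in late dogs and 10.39 to 10.64 in early dogs. HDAC3, a histone deacetylase, lay at 5.90 to 6.14 in late dogs and 5.50 to 5.83 in early dogs. TCF4, a basic helix-loop-helix factor, lay at 7.03 to 7.44 in late dogs and 6.79 to 7.02 in early dogs. TNFAIP1, SHISA5 and AGBL5 were likewise higher (differences of 0.42, 0.27 and 0.24), and GNPNAT1, LOC490647 and EPB41L3 lower (−0.23, −0.22 and −0.17). Some differences at probe sets without a gene symbol were larger: 1603423_at differed by 1.55 (SE 0.33) and 1604807_at by 0.63 (SE 0.13), while 1587119_at differed by −1.26 (SE 0.24, without overlap) and 1590510_at by −0.53 (SE 0.13).

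Of 30 classical heart failure genes, 21 were measured, and 0 passed the test. At an unadjusted limma p under 0.05 there was 1 (THBS1, higher), and the median difference was −0.03, against −0.01 over 5265 genes taken at 1 probe set each. Without End-stage dog 1 and Week-1 dog 1 the median was −0.02, THBS1 was again the 1 gene at an unadjusted p under 0.05, and its shift of 0.16, to 0.89, was the largest among the 21. POSTN was below the signal filter, and NPPA, NPPB, MYH6, PLN, ADRB1, ACE, SLC2A4 and CPT1B had no probe set under those names here. At their brightest probe sets, the contractile and calcium genes sat at almost equal levels. MYH7 had 13.13, 13.57 and 13.73 in late dogs and 13.16, 13.54 and 13.77 in early dogs (difference −0.01, 95% interval −0.32 to 0.30). ATP2A2, the sarcoplasmic reticulum calcium pump SERCA2, differed by 0.00 (−0.26 to 0.26) and RYR2, the calcium release channel, by −0.13 (−0.35 to 0.09). These intervals exclude a 2-fold difference in either direction at those probe sets. Some dimmer probe sets differed more: MYH7 by −0.63 (SE 0.30), ATP2A2 by −0.60 (SE 0.32) and 0.32 (SE 0.21), and RYR2 by −0.51 (SE 0.36). None of these had an unadjusted limma p under 0.05, and the other probe sets of these genes lay nearer to 0.

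The ion channel and coupling genes varied more between dogs. KCNIP2, the KChIP2 subunit of the transient outward potassium current, had 8.74, 9.78 and 10.46 in late dogs and 8.89, 10.32 and 11.32 in early dogs, with a difference of −0.42 (95% interval −1.26 to 0.41). KCND3, the pore of that current, differed by −0.09 (−0.61 to 0.44) at its brighter probe set and by 0.09 (SE 0.20) at the other. GJA1, the gap junction protein connexin-43, differed by −0.24 (−0.91 to 0.43). PPARGC1A, a coactivator of mitochondrial genes, differed by −0.22 (−0.61 to 0.17). Single dogs moved these values: with 1 dog left out at a time, the difference lay between −0.66 and −0.17 for KCNIP2, −0.20 and 0.08 for KCND3, −0.39 and −0.04 for GJA1, and −0.30 and −0.09 for PPARGC1A.

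Of the profibrotic genes, CCN2 (connective tissue growth factor) had 10.63, 11.12 and 12.30 in late dogs and 8.95, 10.57 and 11.64 in early dogs. Its difference of 0.70 (95% interval −0.09 to 1.50) did not pass at an unadjusted level, its Day-0 mean was 9.17, and without Day-3 dog 1, the lowest early dog, the difference was 0.39. TGFB1 differed by 0.14 (−0.08 to 0.37). The collagen genes COL1A1 and COL3A1 differed by 0.09 (−0.63 to 0.80) and −0.28 (−0.88 to 0.33). With 1 dog left out at a time these lay between 0.07 and 0.20 for TGFB1, −0.08 and 0.29 for COL1A1, and −0.46 and −0.09 for COL3A1.

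**Figure D4:**
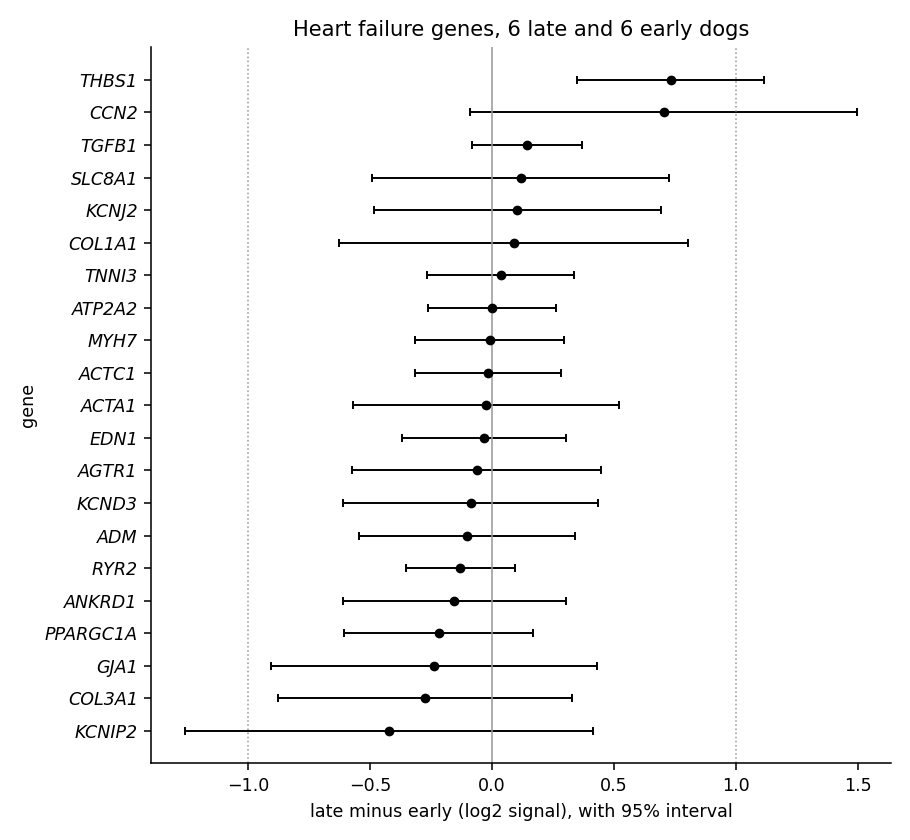
Late minus early difference (log2 signal, x axis) of the 21 heart failure genes measured (y axis), with points at the limma estimate and bars for the unadjusted 95% interval; dotted lines mark a 2-fold difference. THBS1 at 0.73 is the only gene whose interval leaves out 0.

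Gene lists were described by counts and medians. Over 35 lists and 6 cell type marker lists with at least 3 measured genes, 0 members passed the limma threshold, and 32 of the 41 list medians lay within 0.1 of 0. Without End-stage dog 1 and Week-1 dog 1 the largest move of a list median was 0.10, and 4 turned sign: macrophage markers (−0.09), the circadian clock, apoptosis and the costamere list. The background for members at an unadjusted p under 0.05 was 106 higher and 93 lower of 5265 genes.

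The immediate early genes, transcription factors and phosphatases switched on within minutes of a stimulus, had the largest list median. Of 9 measured, 0 passed the test, 4 had an unadjusted p under 0.05, all 9 estimates were above 0, and the median difference was 0.61. FOS, a subunit of the AP-1 factor, had log2 signals of 6.21, 8.56 and 11.51 in late dogs and 3.86, 6.20 and 8.60 in early dogs (difference 2.57, SE 0.94, limma unadjusted p = 0.0157). The groups overlapped at 3 of the 6 late dogs. The End-stage dogs stood at 6.66, 6.21 and 8.98 and the Week-2 dogs at 11.04, 8.14 and 11.51, and the first 2 End-stage dogs and the second Week-2 dog lay within the early range. IER2, another early response gene, differed by 0.74 (SE 0.31), and NR4A1, an orphan nuclear receptor, by 0.92 (SE 0.61). Medians over the list, relative to the mean of the paced dogs, were −0.17 on Day-3, −0.30 at Week-1, 0.78 at Week-2 and −0.01 at End-stage. With Week-2 dogs alone as the late group the median difference was 1.10, and with End-stage dogs alone it was 0.23. The Week-2 dogs had list medians of 1.30, 0.12 and 0.94, and without Week-2 dog 1 the difference was 0.40.

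Glucocorticoid-responsive genes, which share DUSP1 with the list above, had a median of 0.32 over 11 measured, with 3 higher at an unadjusted p under 0.05 (DUSP1, SGK1 and NFKBIA). FKBP5 and TSC22D3, which are classical targets of the glucocorticoid receptor, had estimates of −0.33 (SE 0.22) and −0.16 (SE 0.16). Day-3 dog 1 had the lowest list median, at −0.78, and also the lowest median of the immediate early genes, at −0.65. Without that dog the glucocorticoid list median was 0.18, and with End-stage dogs alone as the late group it was 0.16.

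Interferon response and antigen presentation genes had a median of 0.23 over 14 measured, with 3 higher at an unadjusted p under 0.05. ISG15, an interferon-induced ubiquitin-like protein, had 6.04, 6.46 and 7.03 in late dogs and 5.51, 6.03 and 6.46 in early dogs (difference 0.50, SE 0.18). PSMB9, an immunoproteasome subunit, differed by 0.54 (SE 0.24) and OAS2, an antiviral synthetase, by 0.45 (SE 0.20). The class II genes DLA-DQA1 and DLA-DQB1 had estimates of −0.30 (SE 0.24) and −0.20 (SE 0.23). Of 9 chemokine and acute inflammation genes, CCL2, the monocyte chemoattractant, differed by 0.59 (SE 0.18) and NFKBIA, the inhibitor of NF-kappa B, by 0.52 (SE 0.22), with a list median of 0.15 that was 0.0187 without Week-1 dog 3 and −0.107 with End-stage dogs alone as the late group. CCL2 lay above every early dog in 5 of 6 late dogs and below every early dog in End-stage dog 1, at 6.46. Macrophage markers had a median of 0.01 over 10 measured (−0.16 to 0.08 with 1 dog left out), with a summed signal of 979 to 1351 in late dogs and 781 to 1671 in early dogs.

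Vascular marker lists had estimates of opposite sign. All 5 measured smooth muscle and pericyte markers had estimates below 0, with a median of −0.30 and 3 lower at an unadjusted p under 0.05. SMTN, the smooth muscle protein smoothelin, had 10.31, 10.43 and 10.74 in late dogs and 10.58, 10.75 and 11.03 in early dogs (difference −0.30, SE 0.10). Its other probe sets differed by −0.16, −0.18 and −0.17, none at an unadjusted p under 0.05. MYH11, smooth muscle myosin, differed by −0.51 (SE 0.19; −0.33 without Week-1 dog 3) and ACTA2, smooth muscle actin, by −0.28 (SE 0.12). The 3 End-stage dogs were the lowest of the 12 by list median (−0.29, −0.24 and −0.23), and stage medians were 0.16, 0.07, −0.02 and −0.26 from Day-3 to End-stage. All 7 measured endothelial markers had estimates above 0, with a median of 0.16 and 1 (VWF) at an unadjusted p under 0.05. That median was 0.0778 without Week-1 dog 2 and 0.10 without Day-3 dog 1. Summed signal of the smooth muscle markers was 5102 to 6454 in late dogs and 5723 to 8288 in early dogs, and that of the endothelial markers was 6016 to 7210 in late dogs and 5425 to 6885 in early dogs. Both ranges overlapped.

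Matrix genes had a median of 0.07 over 26 measured, between 0.00139 and 0.12 with 1 dog left out. Besides THBS1, CILP, a cartilage and cardiac matrix protein, had an unadjusted p under 0.05, with 7.03, 7.81 and 8.07 in late dogs and 5.88, 6.91 and 7.37 in early dogs (difference 0.83, SE 0.24; Day-0 mean 6.27). ASPN (asporin) differed by 0.39 (SE 0.20). Fibroblast markers had a median of −0.04 over 6 measured, with a summed signal of 7561 to 11511 in late dogs and 7990 to 13557 in early dogs. The TGF-beta and BMP list had a median of 0.14 over 11 measured (0.0715 to 0.152 with 1 dog left out), the basement membrane list 0.11 over 7 (−0.00304 to 0.14), and the cell cycle list 0.12 over 8 (0.0411 to 0.21), each with 0 members at an unadjusted p under 0.05.

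The energy metabolism lists had medians near 0. Oxidative phosphorylation had a median of 0.01 over 48 genes, with every estimate between −0.13 and 0.12 and 0 at an unadjusted p under 0.05. The tricarboxylic acid cycle list had 0.02 over 24, glycolysis 0.01 over 21 and fatty acid oxidation 0.03 over 31. ETFDH, which passes electrons from fatty acid oxidation to ubiquinone, had 11.06, 11.31 and 11.60 in late dogs and 10.69, 10.92 and 11.23 in early dogs (difference 0.39, SE 0.12, limma unadjusted p = 0.00466). PFKFB3, which raises the allosteric activator of phosphofructokinase, differed by −0.42 (SE 0.17; −0.28 without Day-3 dog 3). PDK4, the kinase that restrains pyruvate dehydrogenase, differed by 0.53 (SE 0.35), and by 0.18 without Day-3 dog 1, where it was lowest.

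Protein synthesis and turnover lists were as close to 0. The cytosolic ribosome had a median of 0.02 over 59 genes, the mitochondrial ribosome −0.04 over 46 and the proteasome −0.03 over 31. Endoplasmic reticulum folding had 0.04 over 18, in which CLGN, the chaperone calmegin, differed by 0.64 (SE 0.28), with a Day-0 mean of 5.54 and stage means of 6.21, 7.21, 7.64 and 7.05 in order of time. Heat shock chaperones had −0.02 over 22. The sarcomere list had −0.02 over 17, calcium cycling 0.00 over 11 and potassium and sodium channels −0.09 over 7, a median that was 0.0368 without Week-1 dog 3 and 0.0734 without End-stage dog 3. The natriuretic peptide and fetal programme list, without its peptides, had −0.09 over 8. Complement and coagulation had −0.08 over 14, with C3 the lowest and VWF the highest member.

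**Figure D5:**
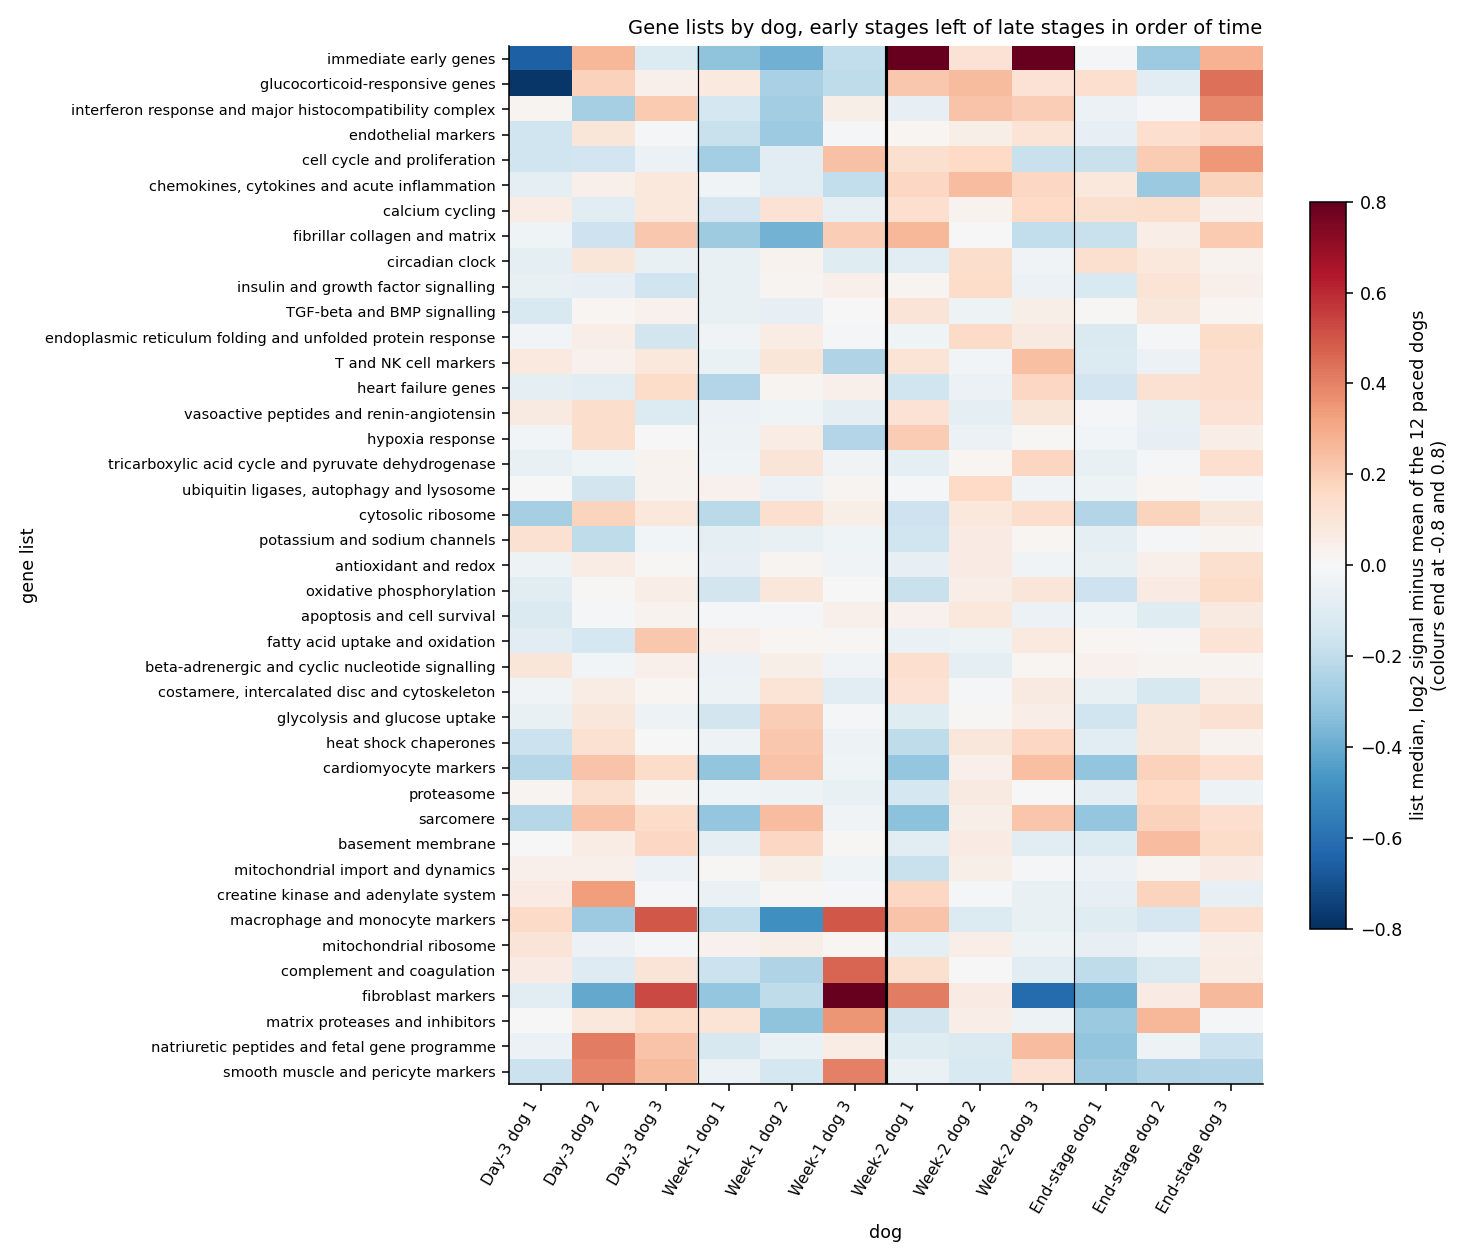
Median over each gene list (y axis) of log2 signal minus the mean of the 12 paced dogs, shown as colour for each dog in order of stage (x axis), lists sorted by late minus early. The thick line parts early from late dogs; the immediate early genes stand out in Week-2 dogs 1 and 3, at 1.30 and 0.94, beyond the ends of the colour scale, and the End-stage dogs are lowest for smooth muscle markers.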

How the data were processed

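Left ventricular RNA of 12 paced dogs was measured on arrays, 3 isolations a dog, and the groups came from the labels' titles. The deposited values are linear signal intensity per probe set, computed with GCOS 1.4 and MAS5 per the submitters' processing notes. Every array had the same 2%-trimmed mean (150.02 to 150.026 on paced arrays), so the values were scaled per array. The mean over the 3 arrays of a dog was taken after a log2 transform. An array has no read depth, and precision rests on the 6 dogs a group and on the 3 isolations averaged for each dog.

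Of 23913 probe sets, 77 controls and the 40% with the lowest mean log2 signal (below a signal of 22.9) were left out. The other 14302 were tested with limma 3.58.1 in R 4.3.3 (lmFit, eBayes with an intensity trend), two-sided, with Benjamini-Hochberg adjustment at 0.05. The fit was tested on simulated data. An exact permutation test over splits of the dogs was run on every probe set and adjusted over all of them, where the plan had adjusted over named genes alone. The array's GEO annotation, updated by gene ID through RefSeq (UU_Cfam_GSD_1.0), gave 1 symbol to 7673 probe sets, several to 101 and none to 6528, and 7281 symbols were matched in the update. The files name no genome build, so no coordinates are given.

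Named genes were the 10 with the smallest p in each direction (none passed, so no gene could be taken by size), the heart failure genes, the 4 measured members of smallest p in every list (fewer where fewer were measured), and up to 2 unnamed probe sets a direction. Further list members and genes without overlap were picked with their values in view. A gene in a list was represented by its brightest probe set. The comparison, its members and the lists were chosen with earlier results of these data known. Alternatives changed the normalisation, filter, offset, variance trend, design, isolations and dogs.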

Additional observations from a re-analysis of the deposited data

Results flagged for a closer look

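In 18 of 362 groups of 6 dogs checked (4.97%, 181 genes in late and in early dogs), 1 dog stood apart from the other 5 by Dixon's criterion of 0.625 for the gap over the range. Chance gives such a gap in about 1 in 20 groups, so the number found is close to the number chance gives, and no cause was tested. All values are log2 signals.

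Among late dogs, Week-2 dog 1 was the highest for DUSP6 (9.36) and the lowest for CTSK (8.26), NDUFS4 (10.68) and HSPE1 (9.10). Week-2 dog 3 was the highest for ANKRD1 (10.80), ENG (10.14) and CXCL10 (6.53), and the lowest for RPL17 (11.37) and CLOCK (5.19). End-stage dog 1 was the highest for ATG7 (7.16) and the lowest for CCL2 (6.46). End-stage dog 2 was the highest for KCNH2 (10.25) and PRKAG2 (8.14).

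Among early dogs, Day-3 dog 2 was the lowest for RYR2 (10.64) and the highest for BAG3 (10.98). Day-3 dog 1 was the highest for DIABLO (9.32), Week-1 dog 3 the lowest for PDLIM5 (10.51) and Week-1 dog 2 the lowest for OAS2 (4.58).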

How the results depend on the processing

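The count of probe sets past the limma threshold was 0 in 26 of 29 other settings. It was 5 with all 36 arrays and the dog as a random block (NEFH, DUSP1 and 3 unnamed probe sets), 1 without End-stage dog 1 and Week-1 dog 1, and 0 to 1 when dogs were left out in turn. The 1 in both cases was NEFH (2.41 without End-stage dog 1, limma adjusted p = 0.0126). The fit on all 36 arrays used the same correlation between isolations of a dog (0.293) for every probe set. Where isolations of a dog are more alike than that, they partly act as replicates and the SE is too small. Unadjusted counts were 419 with median centring, 823 with no signal filter, 653 with the lowest 20% of probe sets removed, and 452 to 744 with dogs left out. Dog numbers were not taken to pair dogs. The rule asked for a correlation above 0.1 in every same-numbered late and early pair, and 8 of 12 pairs met it. All 12 correlations were nonetheless above 0 (0.05 to 0.36), and 9 of 12 dogs were closest across to their own number. The SE and p values of named genes come from fits without a block on the number. With the number as a replicate block, 0 probe sets passed and 731 had an unadjusted p under 0.05. Of 1148 list medians under other settings, few left the spread between dogs. The potassium and sodium channel median was 0.0101 without isolation 3, 0.0650 with Week-2 dogs as the late group, and −0.165 to 0.0734 with dogs left out. The TGF-beta median was 0.0715 to 0.152 with dogs left out, and the immediate early median was 1.10 with Week-2 dogs and 0.23 with End-stage dogs as the late group. The chemokine median was −0.0609 without isolation 3 and −0.107 with End-stage dogs as the late group. The cause of these shifts was not tested. The settings with Week-2 or End-stage dogs alone were added after the data were seen. End-stage dog 1 and Week-1 dog 1 were chosen for joint removal from their array profiles. None of the 20 leading genes turned sign in any setting, and 34 of 181 named genes did.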
